A study of Saccharomyces cerevisiae with 3 samples.

Results

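Thiamine (vitamin B1) genes of the budding yeast Saccharomyces cerevisiae were followed across 3 expression arrays. They are 10 genes of 5777 measured: THI5, THI11, THI12, THI13, THI2, THI4, THI6, THI7, THI20 and PHO3, found by locus tag. All 10 were on the array, 9 with 8 probes and PHO3 with 7. The list was put together for how these genes read on the same arrays, so their differences are described here and not tested.

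Each array held RNA pooled from 3 cultures of strain DS10, freshly transformed and grown to log phase in medium that lacks leucine and so keeps the LEU2 plasmid pRS415. All groups are labelled WT (wild type) and carried this plasmid with the strong, constitutive GPD promoter. The control, called vector, had GPD-TAP. The other groups are labelled as overexpression of a construct. One was Ssz1 carrying the substitution S295F. The other was the C-terminal piece of Zuo1 from residue 365 to 433 carrying S427G, called the Zuo1 fragment here. The labels do not say how much thiamine the medium contained. With 1 array per group there is no spread between cultures, and every error below is the SD over the 3 blocks of probes on an array, which covers technical noise alone.

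Yeast makes thiamine by joining a pyrimidine (HMP) and a thiazole, each built by its own branch, and activates it to thiamine diphosphate, a cofactor of decarboxylases and transketolase. Cells also take thiamine up, after cell-surface phosphatase has freed it from its phosphates. The genes of synthesis and uptake are known to be repressed when thiamine is plentiful and switched on without it through Thi2, Thi3 and Pdc2, with thiamine diphosphate as the signal. Ssz1 and Zuo1, partners in the ribosome-associated complex, are known as activators of the drug-resistance factor Pdr1.

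As deposited, the readings fell into separate patterns. The 4 HMP genes were highest with Ssz1 S295F and lowest with the Zuo1 fragment, THI2 and THI4 were highest with vector and lowest with the Zuo1 fragment, and the transporter gene THI7 was higher with both constructs than with vector. PHO3 and THI20 were lower with both constructs, and THI6 had overlapping block values on all arrays. For THI13, the block values of vector and Ssz1 S295F overlapped. Under another scaling, given below, THI2 and THI4 had the signs of the HMP genes in both comparisons with vector. The plot of levels by array shows these patterns.

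**Figure D1:**
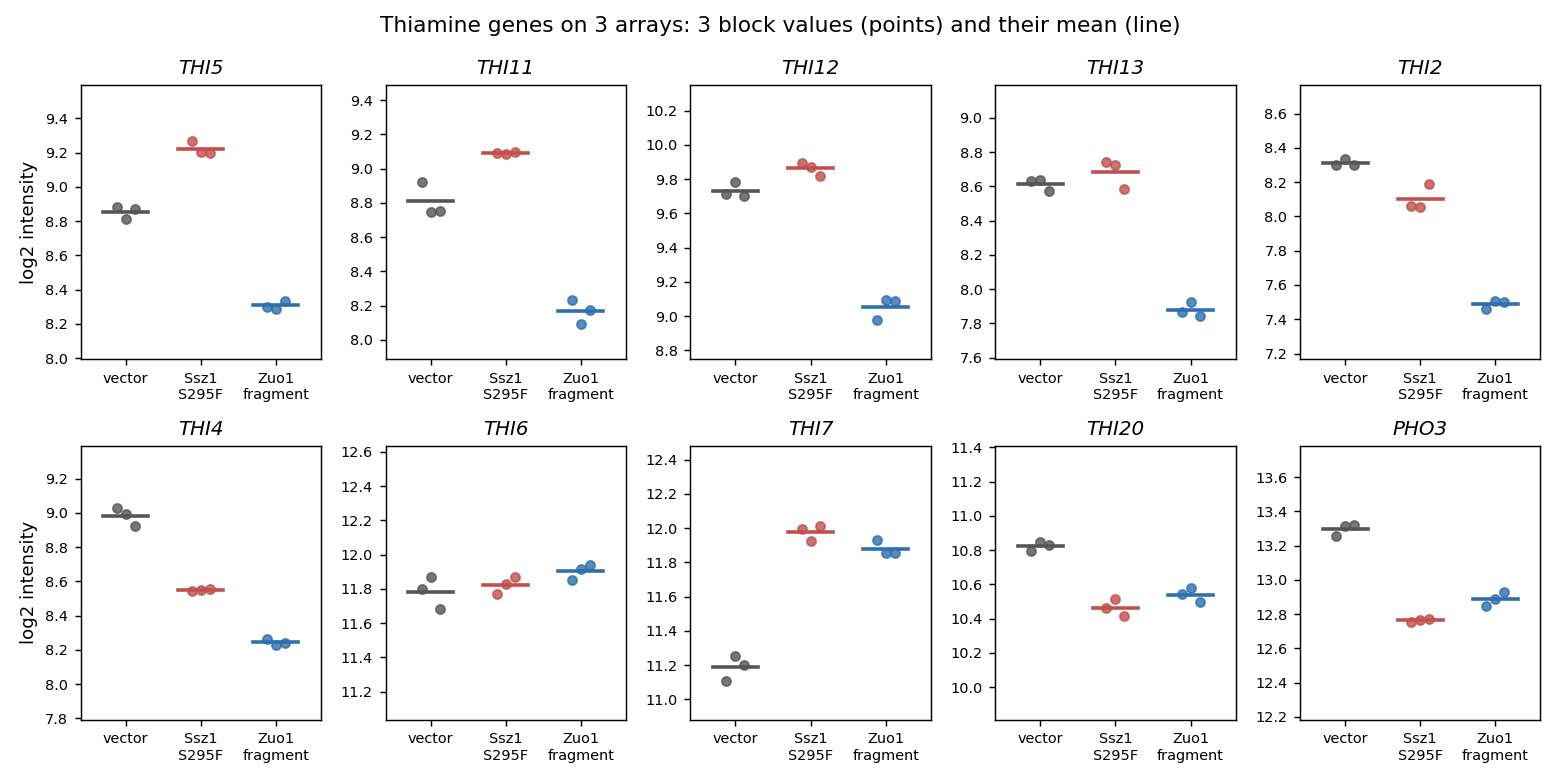
Levels of the 10 thiamine genes on the vector, Ssz1 S295F and Zuo1 fragment arrays, as log2 intensity. Points are the 3 block values and lines their mean, and every panel spans the same number of log2 units around its own centre. The Zuo1 fragment array is lowest for THI5, THI11, THI12, THI13, THI2 and THI4, and the vector array is lowest for THI7.

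The HMP branch is represented by THI5, THI11, THI12 and THI13, near-identical genes for HMP synthesis. They lie near chromosome ends, in the 2008 chromosome sequences that the array files cite: THI5 (YFL058W) on chromosome VI at 12929 to 13951, THI11 (YJR156C) on X at 728568 to 729590, THI12 (YNL332W) on XIV at 14832 to 15854 and THI13 (YDL244W) on IV at 16204 to 17226. Each span is the coding sequence of 1023 bp. Between the gene and the nearer end of its chromosome, the array measured 9 genes for THI5, 1 for THI11, 3 for THI12 and 4 for THI13. Because the copies are so alike, their signals may be shared, and their agreement does not count as 4 separate observations.

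THI5 read (intensity, as for every reading below) 463 in vector cells, 597 in Ssz1 S295F cells and 317 in Zuo1 fragment cells. THI11 read 448, 545 and 288 on the same arrays. Both were highest with Ssz1 S295F and lowest with the Zuo1 fragment, and the block values of the 3 arrays did not overlap. THI12 read 851 in vector cells, 931 in Ssz1 S295F cells and 531 in Zuo1 fragment cells, again with no overlap. THI13 read 392, 411 and 235, and here the block values of vector and Ssz1 S295F overlapped, while those of the Zuo1 fragment lay below both. Over all genes the median block SD was 0.04 in both comparisons with vector, beside an SD between genes of 0.61 and 0.48. The share of all genes without overlap was not counted, so non-overlap here and below does not set these genes apart.

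Against vector, the log2 ratio with Ssz1 S295F was 0.37 ± 0.03 for THI5, 0.28 ± 0.10 for THI11, 0.13 ± 0.05 for THI12 and 0.07 ± 0.05 for THI13, none past 1.5-fold. With the Zuo1 fragment it was -0.55 ± 0.03, -0.64 ± 0.06, -0.68 ± 0.06 and -0.74 ± 0.03 in the same order. These comparisons share the vector array, so the values are set side by side only. The middle gene of all 5777 lay at -0.15 for Ssz1 S295F and -0.12 for the Zuo1 fragment. Relative to those medians, the copies stood at 0.22 to 0.52 with Ssz1 S295F and at -0.61 to -0.42 with the Zuo1 fragment. The signs for the copies were kept in each comparison under the 4 other scalings tried, but sizes moved. Once the trend with level was removed, the copies stood at 0.51 to 0.83 with Ssz1 S295F and at -0.31 to -0.09 with the Zuo1 fragment. With Ssz1 S295F, THI5 then passed 1.5-fold (0.83), as it did after quantile normalization (0.59) and the correction for coding length (0.61), and THI11 passed it after removal of the level trend (0.75).

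The order Ssz1 S295F over vector over Zuo1 fragment was seen in 276 genes, or 4.78% of all genes, and among the 10 thiamine genes in the 4 copies. Among 528 genes of a level like theirs it was seen in 47, or 8.90%. With the trend with level removed, THI2 and THI4 also had a ratio to vector above 0 with Ssz1 S295F and below 0 with the Zuo1 fragment. The commonest order over all genes, vector over Zuo1 fragment over Ssz1 S295F, was seen in 48.2% of them, including THI20 and PHO3.

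The constructs can also be set against each other without the vector array. The log2 ratio of the Zuo1 fragment to Ssz1 S295F was -0.91 ± 0.05 for THI5, -0.92 ± 0.07 for THI11, -0.81 ± 0.10 for THI12 and -0.81 ± 0.07 for THI13. The reading was thus 1.88-fold lower with the Zuo1 fragment for THI5, 1.89-fold for THI11 and 1.75-fold for THI12 and THI13. Counted from the lowest ratio of all 5777 genes, THI11 was at place 21, THI5 at 23, THI12 at 35 and THI13 at 36. The construct arrays otherwise lay close together, with 90% of all genes between -0.31 and 0.29. Among the 528 genes of a level like that of the copies the spread was wider, with 90% between -0.61 and 0.45.

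THI2 (YBR240C, chromosome II, 700485 to 701837, coding length 1353 bp) encodes a transcriptional activator of thiamine genes. It read 318 in vector cells, 275 in Ssz1 S295F cells and 180 in Zuo1 fragment cells, with no overlap between arrays. The reading in Zuo1 fragment cells was among the dimmest 5% of that array, and sizes that rest on it are uncertain beyond their SD. Its log2 ratio to vector was -0.21 ± 0.09 with Ssz1 S295F, where the sign turned once a trend with level was removed (0.31). With the Zuo1 fragment it was -0.82 ± 0.02, and -0.33 without that trend, short of 1.5-fold. Between the constructs it stood at -0.61 ± 0.07, so THI2 was lower with the Zuo1 fragment, as the copies were.

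THI4 (YGR144W, chromosome VII, 780404 to 781384, coding length 981 bp) encodes the enzyme that builds the thiazole. It read 505 in vector cells, 375 in Ssz1 S295F cells and 303 in Zuo1 fragment cells, 3 levels whose block values did not overlap. Its log2 ratio to vector was -0.43 ± 0.06 with Ssz1 S295F, turning to 0.05 once the trend with level was removed. With the Zuo1 fragment it was -0.74 ± 0.05, which fell short of 1.5-fold without that trend (-0.28), after quantile normalization (-0.57) and after the correction for coding length (-0.51). The ratio between the constructs, -0.30 ± 0.02, had the same sign as that of the copies and did not reach 1.5-fold.

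THI6 and THI20, of later steps, spanned 0.12 and 0.36 log2 units over the 3 arrays, where THI4, THI2 and the copies spanned 0.74 to 0.92. THI6 and THI20 also read brighter than those genes. Whether the span goes with the step of the pathway or with the level was not tested. THI6 (YPL214C, chromosome XVI, 148568 to 150190), the enzyme that joins the pyrimidine and the thiazole, read 3526 in vector cells, 3622 in Ssz1 S295F cells and 3826 in Zuo1 fragment cells. All 3 sets of block values overlapped, and the sign of the 0.04 ± 0.13 with Ssz1 S295F turned after a correction for coding length (-0.02). THI20 (YOL055C, chromosome XV, 224419 to 226074), a kinase of HMP and its phosphate, read 1814, 1412 and 1488 on the vector, Ssz1 S295F and Zuo1 fragment arrays. Both construct readings of THI20 lay below vector (-0.36 ± 0.05 and -0.29 ± 0.04), and their block values overlapped each other.

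Uptake genes differed from each other in direction. THI7 (YLR237W, chromosome XII, 612369 to 614165, coding length 1797 bp), the plasma membrane thiamine transporter, read 2331 in vector cells, 4029 in Ssz1 S295F cells and 3772 in Zuo1 fragment cells. It was higher with both constructs, 1.73-fold and 1.62-fold, and stayed past 1.5-fold under the 4 other scalings. Block values of the construct arrays overlapped, with -0.10 ± 0.05 between them. PHO3 (YBR092C, chromosome II, 427692 to 429095), the thiamine-repressed acid phosphatase of the cell surface, read 10070 in vector cells, 6952 in Ssz1 S295F cells and 7580 in Zuo1 fragment cells. Its ratios to vector were -0.53 ± 0.03 and -0.41 ± 0.02, below vector on both construct arrays without overlap but short of 1.5-fold.

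**Figure D2:**
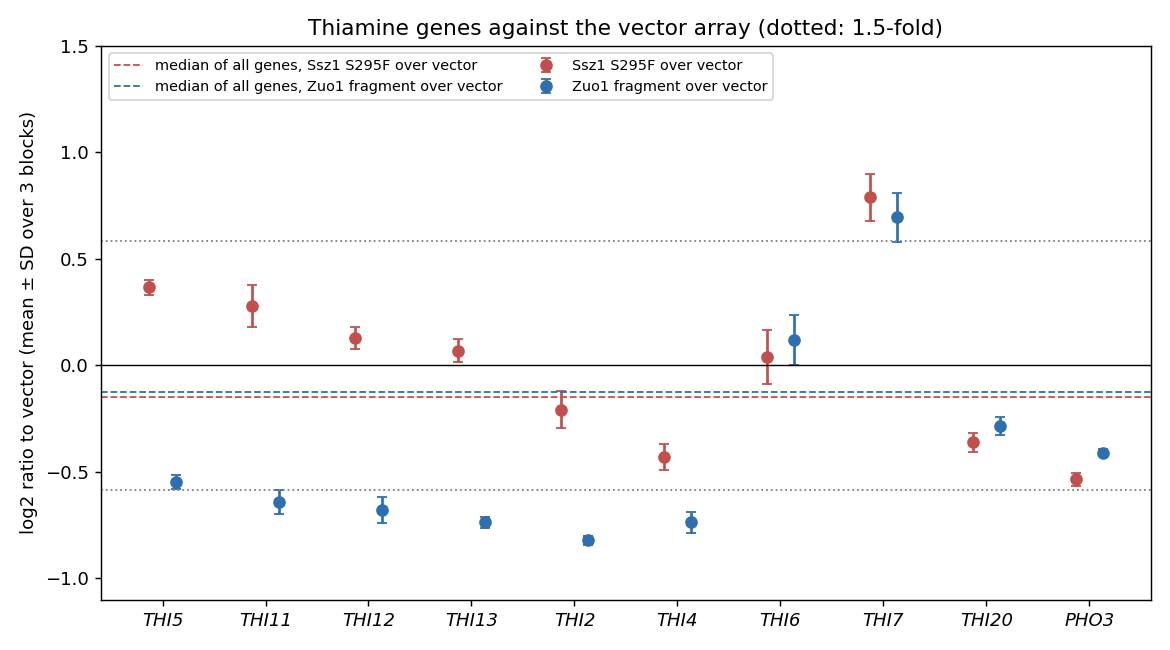
Log2 ratio to vector of each thiamine gene with Ssz1 S295F (red) and with the Zuo1 fragment (blue), as the mean and SD over 3 blocks. Dashed lines mark the median of all 5777 genes in each comparison (-0.15 and -0.12) and dotted lines 1.5-fold. The red and blue points are far apart for THI5, THI11, THI12, THI13 and THI2 and close together for THI6, THI7, THI20 and PHO3.

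Counted past 1.5-fold, a rule of size, 1 of the 10 genes was higher with Ssz1 S295F (THI7) and 0 were lower, where 10.2% and 13.1% of all genes were. With the Zuo1 fragment, 5 were lower (THI11, THI12, THI13, THI2 and THI4) against 7.17% of all genes, and 1 was higher (THI7) against 7.60%. Of these 5 lower genes, 3 passed after median centring, 1 after quantile normalization, 1 after the correction for coding length and 0 after removal of the level trend. Between the constructs, 5 were lower with the Zuo1 fragment (THI5, THI11, THI12, THI13 and THI2) against 1.38% of all genes, and 0 were higher against 0.675%. No gene of the 10 passed 2-fold in either direction, where 7.79% of all genes did with Ssz1 S295F, 4.50% with the Zuo1 fragment and 0.277% between the constructs. The median over the 10 genes over vector was 0.05 for Ssz1 S295F and -0.59 for the Zuo1 fragment, and -0.46 between the constructs, beside -0.15, -0.12 and 0.03 for all genes. With the near-identical copies averaged to 1 value, these medians were -0.21, -0.41 and -0.10, and 2 values in place of 5 were lower past 1.5-fold between the constructs. As the genes were chosen on these contrasts, the counts are a description.

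Dim genes read differently from bright ones in the comparisons with vector, and the copies, THI2 and THI4 were dim. Over the 528 genes whose mean intensity lay between 250.4 and 749.6, the range set by the copies and THI2, the median log2 ratio was -0.43 with both constructs. Past 1.5-fold, 29.9% of these genes were lower with the Zuo1 fragment and 40.7% were lower with Ssz1 S295F. The copies with the Zuo1 fragment (-0.74 to -0.55) thus lay near other dim genes, and with Ssz1 S295F (0.07 to 0.37) they lay above that median. Between the construct arrays the same 528 genes had a median of 0.03, and 5.49% of them were lower past 1.5-fold. At or below THI11 there were 4 of the 528, itself included, and at or below THI13 there were 11, the copies among them. The thiamine genes were chosen on this contrast, so these places are a description. This window was chosen after the values were seen.

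**Figure D3:**
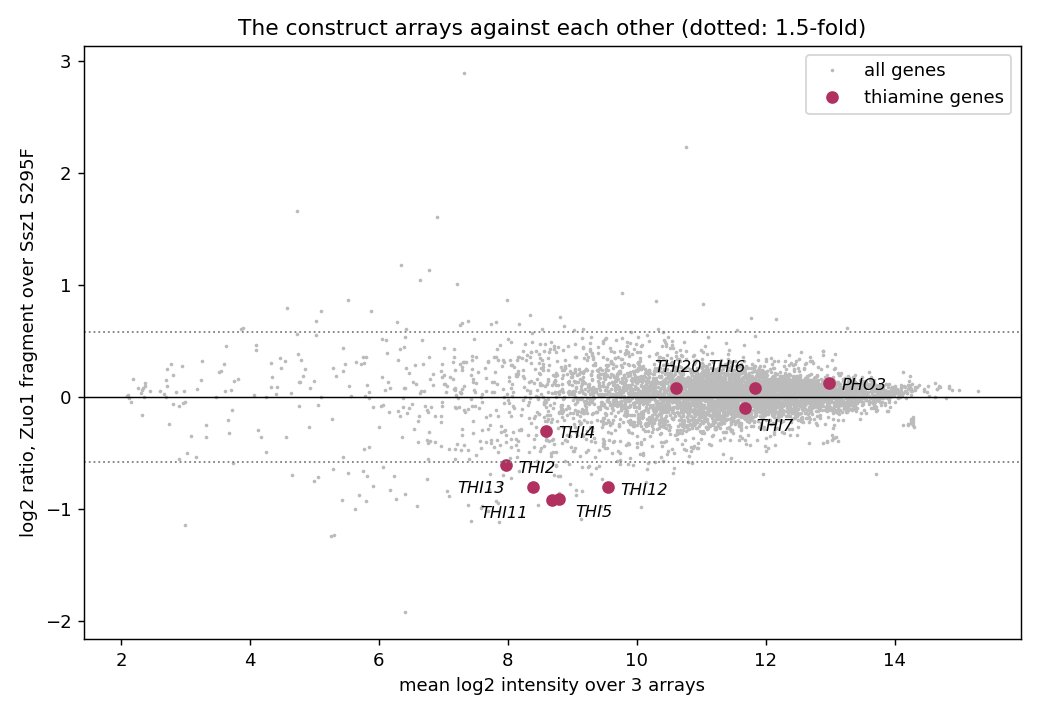
Log2 ratio of the Zuo1 fragment array to the Ssz1 S295F array against mean log2 intensity over the 3 arrays, for all 5777 genes (grey) and the thiamine genes (coloured). Dotted lines mark 1.5-fold. THI5, THI11, THI12, THI13 and THI2 lie below the lower dotted line on the dim side, where the grey points also spread more widely.

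Coding length moved with the ratios as well. Among the 923 genes of 900 to 1200 bp, which take in the copies and THI4, the median was -0.22 for Ssz1 S295F, -0.20 for the Zuo1 fragment and 0.04 between the constructs. After a smooth trend with coding length was subtracted, the copies stood at 0.32 to 0.61 for Ssz1 S295F and -0.52 to -0.33 for the Zuo1 fragment. Between the constructs they stood at -0.96 to -0.85. THI4 stood at -0.16, -0.51 and -0.35 in the same order. The part of level and length in the differences from vector was not tested further.

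The chromosomal neighbours of the copies did not follow them in size. The nearest measured gene on each side was SNZ3 and YFL057C for THI5, AAD10 and COS5 for THI11, SNZ2 and AAD14 for THI12, and HXT15 and AAD4 for THI13. Between the constructs, these 8 neighbours ranged from -0.28 for SNZ2 to 0.32 for YFL057C, with 0 past 1.5-fold. Of all genes, 1.38% were lower and 0.675% higher past that size, so 0 of 8 does not set the neighbours apart. SNZ2 and SNZ3, genes of vitamin B6 synthesis that lie 668 and 669 bp from THI12 and THI5, read 233 and 191 in vector cells, 216 and 181 in Ssz1 S295F cells, and 177 and 156 in Zuo1 fragment cells. Both were lowest with the Zuo1 fragment, at -0.28 ± 0.11 and -0.22 ± 0.06 against Ssz1 S295F. They are near-identical to each other, and SNZ3 was below the 5th percentile on all arrays, SNZ2 on the Zuo1 fragment array.

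Of 11 other thiamine genes, 2 were higher and 3 lower past 1.5-fold with Ssz1 S295F, and 2 higher and 2 lower with the Zuo1 fragment. Of all genes, 10.2% were higher and 13.1% lower with Ssz1 S295F, and 7.6% and 7.17% with the Zuo1 fragment. Counts this small are not read as a trait of the list. The higher genes were THI72 and NRT1, relatives of THI7 in the same transporter family. THI72 read 120 in vector cells, 651 in Ssz1 S295F cells and 585 in Zuo1 fragment cells, ratios of 2.44 ± 0.08 and 2.29 ± 0.07 whose size is uncertain because the vector reading lay below the 5th percentile. NRT1, the nicotinamide riboside transporter once named THI71, read 968, 4022 and 3474 (2.06 ± 0.07 and 1.84 ± 0.04). THI7, THI72 and NRT1 were thus higher than vector on both construct arrays, and signal shared between these related genes was not separated.

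The lower genes of that list were TPC1, the mitochondrial carrier of thiamine diphosphate (-0.77 ± 0.04 and -0.75 ± 0.06), PET18 (-1.01 ± 0.02 and -0.67 ± 0.05) and, with Ssz1 S295F only past the size rule, THI22 (-0.74 ± 0.05 and -0.50 ± 0.07), a relative of THI20. The PET18 reading with Ssz1 S295F lay below the 5th percentile. Without the trend with level, PET18 stood at -0.49 and -0.20, TPC1 at -0.47 and -0.49 and THI22 at -0.31 and -0.13, all short of 1.5-fold. TPC1 also fell short after the correction for coding length (-0.48 and -0.51), and THI22 with Ssz1 S295F after quantile normalization (-0.57). With the Zuo1 fragment, PET18 fell short under the other scalings too, at -0.55 after median centring. The regulators lay closer to vector, with THI3 at 0.28 ± 0.05 and 0.13 ± 0.01 and PDC2 at -0.05 ± 0.06 and -0.15 ± 0.06, the sign of PDC2 turning under other scalings. THI80, which makes thiamine diphosphate, stood at -0.49 ± 0.05 and -0.31 ± 0.04, and THI21, the close relative of THI20, at -0.46 ± 0.04 and -0.36 ± 0.08, the second turning to 0.03 once the trend with level was removed. Between the constructs, 0 of the 11 passed 1.5-fold, with a range of -0.21 to 0.33. Of all genes, 1.38% were lower and 0.675% higher there, so 0 of 11 does not set the list apart.

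**Figure D4:**
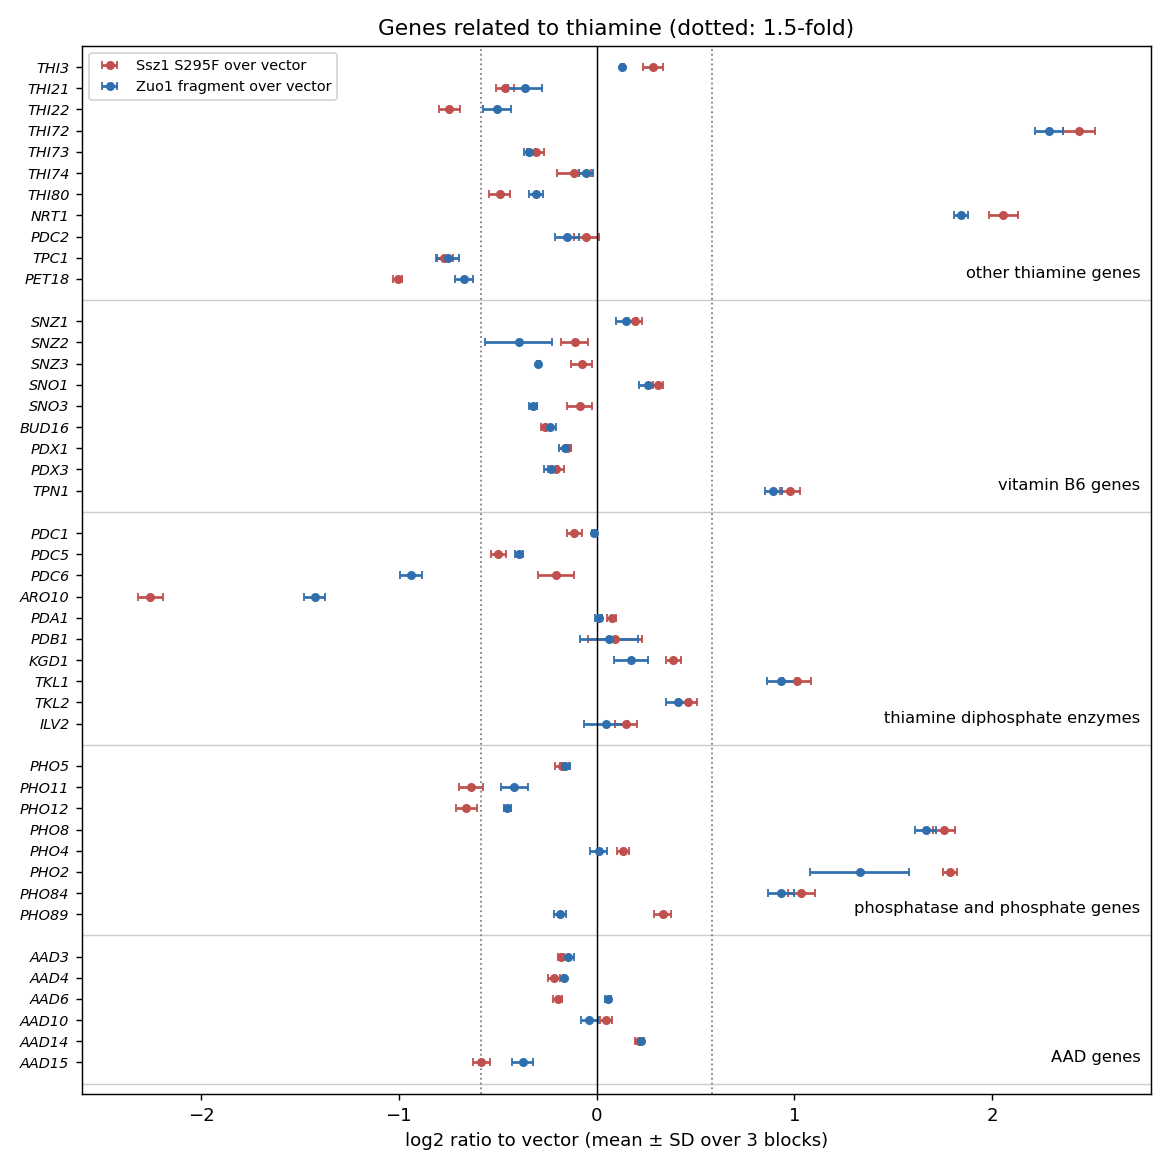
Log2 ratio to vector with Ssz1 S295F (red) and the Zuo1 fragment (blue) for genes related to thiamine, by list, as the mean and SD over 3 blocks. Dotted lines mark 1.5-fold. THI72 and NRT1 stand highest, ARO10 lowest, and for most genes the red and blue points lie close together.

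Vitamin B6 genes were included because B6 feeds the HMP branch. Of the 9 measured, 1 passed 1.5-fold in each comparison with vector, TPN1, a plasma membrane transporter of the vitamin (0.98 ± 0.05 and 0.89 ± 0.04). Of all genes, 10.2% were higher and 13.1% lower with Ssz1 S295F, and 7.6% and 7.17% with the Zuo1 fragment. The 1 of 9 thus does not set the list apart. Past 1.5-fold between the constructs there were 0, where 1.38% of all genes were lower and 0.675% higher. The list median there was -0.05 beside 0.03 for all genes.

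Among 10 enzymes that use thiamine diphosphate, the transketolase gene TKL1 was higher with both constructs (1.01 ± 0.07 and 0.93 ± 0.07) and ARO10, a decarboxylase of amino acid breakdown, was lower (-2.25 ± 0.06 and -1.43 ± 0.05). PDC6, a minor pyruvate decarboxylase, read 140 in vector cells, 121 in Ssz1 S295F cells and 73.0 in Zuo1 fragment cells, each below the 5th percentile of its array. It stood at -0.73 ± 0.07 between the constructs, where 1.38% of all genes were lower past 1.5-fold, and was the one such enzyme of this list. ARO10, far from the dim end at 4910, 1029 and 1828 on the vector, Ssz1 S295F and Zuo1 fragment arrays, passed it the other way (0.83 ± 0.08). The main pyruvate decarboxylase gene PDC1 read 27038, 25003 and 26790 and lay near vector on both construct arrays. The list median was 0.09 for Ssz1 S295F and 0.03 for the Zuo1 fragment.

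PHO5, the phosphate-regulated neighbour and relative of PHO3, read 1677 in vector cells, 1486 in Ssz1 S295F cells and 1500 in Zuo1 fragment cells. Its ratios to vector, -0.17 ± 0.03 and -0.16 ± 0.03, were smaller in size than those of PHO3 and turned sign once the trend with level was removed. The near-identical acid phosphatases PHO11 and PHO12 were lower with Ssz1 S295F past 1.5-fold (-0.64 ± 0.06 and -0.66 ± 0.05), and fell short of it with the Zuo1 fragment (-0.42 ± 0.07 and -0.45 ± 0.02). With Ssz1 S295F they fell short after median centring (-0.49 and -0.51) and quantile normalization (-0.46 and -0.48). Without the trend with level they stood at -0.19 and -0.21. PHO8, PHO2 and PHO84 were higher past 1.5-fold with both constructs. Of all genes, 10.2% were higher and 13.1% lower with Ssz1 S295F, and 7.6% and 7.17% with the Zuo1 fragment. These small counts are not read as a trait of the list. Of these 8 phosphate genes, 0 passed 1.5-fold between the constructs. There, 1.38% of all genes were lower and 0.675% higher, so 0 of 8 does not set the list apart.

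Likeness to the copies was measured as the distance in the pair of log2 ratios to vector, over 3 arrays. The 5 nearest genes outside the list were YKL096C-B at 0.07, SPS22 at 0.14, YFL012W at 0.15, SPO20 at 0.17 and MIP6 at 0.17. Each of them had a reading below the 5th percentile on the Zuo1 fragment array, so their likeness rests on dim readings. For THI4 the nearest were GAS4 (0.06), YGR273C (0.07), SMA2 (0.07), YFL040W (0.08) and YAL063C-A (0.09), of which GAS4 and YGR273C were below the 5th percentile on all arrays and YAL063C-A on both construct arrays. For PHO3 they were RPC25, YOL075C, APC9, TUM1 and YOR012W, at distances of 0.0055 to 0.0157.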

How the data were processed

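One-colour Cy3 expression arrays were made from total RNA of 3 groups, with RNA from 3 cultures pooled per array. The authors deposited 1 intensity per gene and block, linear and already processed by RMA, per the submitters' processing notes. The RMA software is not named there. RMA is meant to even out the arrays' distributions, so only relative differences can be read. The gene values still differed in median intensity, at 2806 for vector, 2701 for Ssz1 S295F and 2720 for the Zuo1 fragment. Values cover 5777 genes in 3 blocks, each from up to 8 probes, per the file headers. A second deposited column with no stated meaning was not used.

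The log2 of each intensity was taken, and the 3 blocks were averaged, with no floor or pseudocount. Printed intensities are these means on the linear scale. A log2 ratio is the difference of the means, and its error is the SD over 3 block ratios. With 1 array per group no test was possible, and 1.5-fold is a rule of size. Names came from a RefSeq gene table (R64) for 5771 genes. Sequences and probe positions were not used here. The genes named were the 10 members, 5 related lists, the nearest measured neighbours of the copies and the 5 genes nearest in pattern to the copies, THI4 and PHO3. SNO2 and AAD16 of those lists were not matched. Of 6 measured AAD genes, 0 passed 1.5-fold in any comparison, where 0.675% to 13.1% of all genes did, by comparison and direction. Members and lists were chosen with earlier results of these data known. Alternatives were the series-wide table, median centring, quantile normalization, loess on level or coding length (span 0.3), block 1, 2 or 3 alone, the copies averaged, and a looser (log2 ratio of 0.32) and a stricter (2-fold) size rule. The calculations were tested on simulated data and run in Python 3.11.15 with numpy 2.4.6, pandas 2.3.3 and statsmodels 0.14.6.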

Additional observations from a re-analysis of the deposited data

How the results depend on the processing

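The number of arrays limits precision: 1 per group, with no repeat. No paired analysis was possible because each group has 1 array. Between the constructs, the signs of all 10 genes were kept under the 8 other settings tried for single genes. Of 40 calls (5 genes under 8 settings), 1 was lost, THI2 in block 2 alone. These calls are not separate checks, as 4 of the 5 genes are the near-identical copies. The series-wide table and the single blocks also hold the same readings as the main values. With the Zuo1 fragment against vector, signs were kept too, but 16 of 48 calls (6 genes under 8 settings) were lost and 1 was gained. With Ssz1 S295F against vector, 5 signs turned (THI2 and THI4 under the loess on level, THI6 under 3 settings), and 4 calls were gained, for THI5 and THI11.

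With Ssz1 S295F, the median over the 10 genes (0.05) became 0.20 after median centring, 0.18 after quantile normalization, 0.41 after the loess on level, 0.15 after the loess on coding length, 0.022 in block 2 alone and -0.21 with the copies averaged. The count past 1.5-fold (1) became 2 after quantile normalization, 3 after the loess on level and 2 after that on coding length. It was 5 past a log2 size of 0.32 and 0 past 2-fold.

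With the Zuo1 fragment, the median (-0.59) became -0.47 after centring, -0.41 after quantile normalization, -0.22 after the loess on level, -0.41 after that on coding length, -0.64 in block 1 alone and -0.41 with the copies averaged. The count (6) became 4 after centring, 2 after quantile normalization, 1 after the loess on level and 2 after that on coding length. It was 7 in block 1 alone, 5 in block 3 alone and 4 with the copies averaged, where fewer values were counted. Past a log2 size of 0.32 it was 8, and past 2-fold 0.

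Between the constructs, the median (-0.46) became -0.53 after the loess on level, -0.50 in block 3 alone and -0.10 with the copies averaged. The count (5) became 2 with the copies averaged, as fewer values were counted, and 0 past 2-fold. For the other changes the cause was not tested.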

Other observations

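Some genes outside the thiamine pathway also had low ratios of the Zuo1 fragment to Ssz1 S295F, and those named here were picked after their values were seen. ADR1 and CAT8, activators of genes for growth on non-fermentable carbon, read 1842 and 1155 in Ssz1 S295F cells and 929 and 588 in Zuo1 fragment cells, log2 ratios of -0.99 ± 0.02 and -0.98 ± 0.11. The hexose transporter genes HXT13 and HXT8, which resemble other members of their family closely, were at -0.97 ± 0.02 and -0.95 ± 0.06. PHO89, a phosphate transporter gene, read 176 in vector cells, 222 in Ssz1 S295F cells and 155 in Zuo1 fragment cells, the same order of arrays as the HMP genes, with its vector and Zuo1 fragment readings below the 5th percentile.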
